A study of Sus scrofa with 4 samples.

Results

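Collagen chain genes were examined in muscle biopsies of pigs (Sus scrofa), taken from 2 libraries of the Hampshire breed and 2 of the Mali breed. The labels set the breeds against each other by their muscularity, and the question is which transcripts separate them. The chains were found by symbol, as rows whose gene name is COL, a number, A and a number with nothing after it; 43 of the 29692 gene symbols in the table met this rule, each in 1 row. They comprised 11 fibrillar chains, 6 chains of basement membrane (type IV) collagen, 4 chains of beaded-filament (type VI) collagen and 22 others. COL6A1, the partner of COL6A2 and COL6A3 in type VI collagen, was not analysed here. The sources used here name neither the muscle sampled nor the age or sex of the pigs, nor whether each library stands for its own animal, so a p-value here reflects the spread among these samples alone, which may be technical.

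Collagens are matrix proteins in which alpha chains wind around each other into a rope-like helix. Fibrillar collagens assemble into the tension-bearing fibrils of endomysium, perimysium and tendon, where type I forms the bulk of thick fibrils, type III is co-assembled with it and type V is set into the fibril core. Type IV collagen forms the sheet-like network of the basement membrane around each muscle fibre and capillary, and type VI forms beaded microfilaments beside it. In skeletal muscle, fibroblasts and related interstitial cells are the main source of the fibrillar chains, and intramuscular collagen is known as a determinant of meat toughness.

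Values were FPKM, normalised by gene length and sequencing yield, which allow levels to be compared between genes but carry no read number, so the depth behind each value is unknown. The FPKM of all genes summed to between 516463 and 988614 per library, and genes of the mitochondrial genome took between 17.1% and 42.5% of these sums. Skeletal muscle identity was evident in every library. The 6 muscle fibre markers summed to 114909 and 126275 FPKM in Hampshire, against 63795 and 140501 FPKM in Mali, so that the breeds overlapped. Skeletal alpha-actin (ACTA1), which is among them, was at 40576 and 46329 FPKM in Hampshire, against 20637 and 25480 FPKM in Mali. It did not overlap, and neither did CKM. The ratio of breed means, Hampshire over Mali, was 1.88 for ACTA1 and 1.44 for CKM. For MYLPF, TNNT3, TNNC2 and DES it lay between 0.78 and 0.90, with overlap. The 8 markers of tendon and cartilage summed to 0.899 and 2.63 FPKM in Hampshire, against 0.907 and 0.230 FPKM in Mali. Of these, TNMD was at 2.02 FPKM in Hampshire replicate 2 and did not exceed 0.217 FPKM in the other libraries. Aggrecan (ACAN) was listed at 0 in every library. Each difference below is Hampshire minus Mali in log2(FPKM + 1), a scale that makes differences of low genes look smaller, and was tested with limma across the 10075 genes that reached 1 FPKM in at least 2 libraries, with Benjamini-Hochberg adjustment over all of them and a threshold of 0.05. No gene of the table passed, so no chain is called changed, and the values below describe how the libraries lay.

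All 17 tested chains had a positive difference, where 39.5% of all tested genes did; for COL6A6, COL21A1 and COL8A1, which passed the filter on low values through the Hampshire libraries alone, that direction was fixed, and it held for all 14 others. With no filter it held for 33 of the 41 chains above 0, against 50.7% of genes. Under the 1 FPKM filter the fibrillar chains had the highest class median, 2.28, but with no filter it was 1.05 for fibrillar and 1.35 for type VI chains, and among chains averaging 5 FPKM or more the single chain outside the main classes, COL15A1, was at 2.53. Type III collagen (COL3A1), which forms fine reticular fibrils, was the most abundant collagen transcript in every library. It was at 191 and 722 FPKM in Hampshire replicates 1 and 2, against 15.6 and 73.6 FPKM in Mali replicates 1 and 2. The lower Hampshire value was thus above the higher Mali value, and the ratio of the breed means was 10.2. The log2 difference was 3.41 with a standard error of 0.90, and limma gave an adjusted p of 0.461. Within the libraries titled without a suffix (replicate 1 of each breed) the difference was 3.53, and within those with the suffix 1 (replicate 2) it was 3.28. COL3A1 lies on chromosome 15 (93556914 to 93595678, plus strand, Sscrofa11.1).

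**Figure D1:**
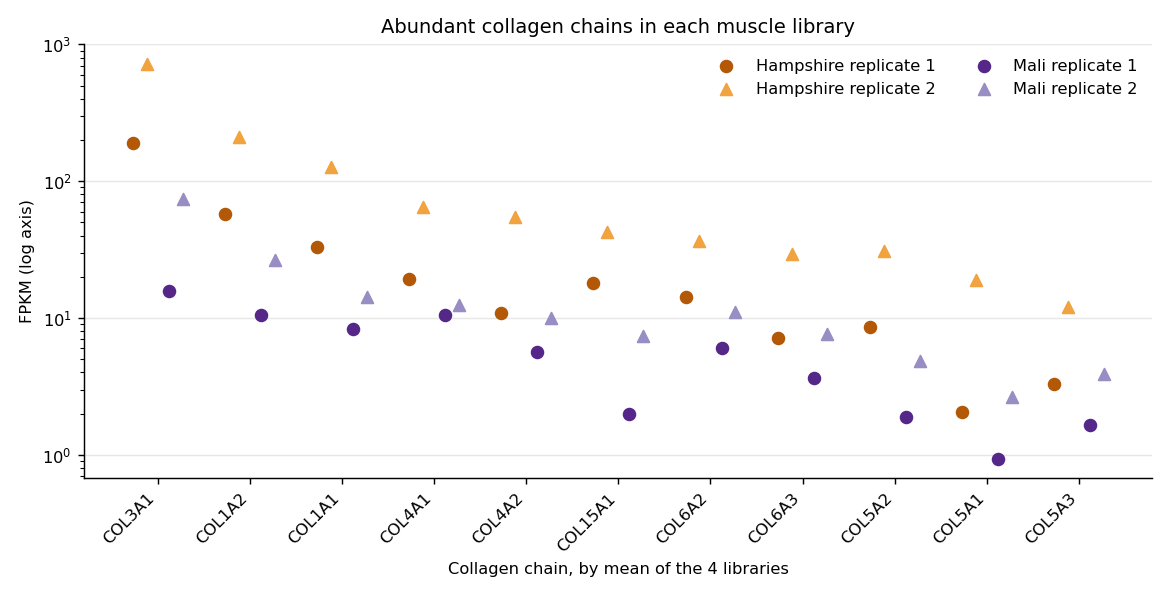
FPKM on a log axis of the 11 collagen chains with a mean of at least 5 FPKM, with circles for replicate 1 and triangles for replicate 2, Hampshire left of Mali at each chain. Hampshire replicate 2 is the highest and Mali replicate 1 the lowest library for all 11 chains, and for COL3A1 the values run between 15.6 and 722 FPKM.

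The chains of type I collagen, the main protein of thick fibrils, behaved alike. COL1A2, on chromosome 9 (74174484 to 74210407), was at 57.4 and 209 FPKM in Hampshire, against 10.5 and 26.6 FPKM in Mali. COL1A1, on chromosome 12 (26379087 to 26397180), was at 32.9 and 127 FPKM in Hampshire, against 8.34 and 14.1 FPKM in Mali. The breeds did not overlap for either chain, and the breed means differed 7.19-fold for COL1A2 and 7.10-fold for COL1A1. For COL1A2 the log2 difference was 2.64 with a standard error of 0.73 and an adjusted p of 0.507 in limma. For COL1A1 these were 2.47, 0.68 and 0.505 in the same test. The difference of COL1A1 was 1.86 within the first title suffix and 3.08 within the second, and that of COL1A2 was 2.34 and 2.93.

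Type V collagen, which sets fibril diameter, was lower in level and less evenly separated. COL5A2 was at 8.59 and 30.6 FPKM in Hampshire, against 1.87 and 4.85 FPKM in Mali, with no overlap. COL5A1 was at 2.06 and 18.9 FPKM in Hampshire, against 0.938 and 2.67 FPKM in Mali, and COL5A3 at 3.30 and 11.9 FPKM in Hampshire, against 1.64 and 3.91 FPKM in Mali. For both of these chains Hampshire replicate 1 lay below Mali replicate 2. COL5A2 neighbours COL3A1 on chromosome 15 (93611856 to 93981131, minus strand), with the ends of the genes facing each other 16.2 kb apart. The 6 tested fibrillar chains had a median log2 difference of 2.28, ranging between 1.05 and 3.41, and 4 of the 6 had no overlap with Hampshire above, as 13.0% of all tested genes did. Leaving out Hampshire replicate 2 gave a median of 1.37, and leaving out Hampshire replicate 1 gave 3.19. The 5 fibrillar chains under the filter were COL2A1, COL11A1, COL11A2, COL24A1 and COL27A1; the cartilage collagen COL2A1 was listed at 0 in both Mali libraries and did not exceed 0.0203 FPKM in Hampshire.

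The tested basement membrane chains were also higher in Hampshire. By log2 difference they lay below COL3A1, COL1A2, COL1A1 and COL5A2, but above COL5A1 (1.55) and COL5A3 (1.05). COL4A1 was at 19.3 and 65.3 FPKM in Hampshire, against 10.5 and 12.3 FPKM in Mali. COL4A2 was at 10.9 and 54.6 FPKM in Hampshire, against 5.60 and 10.03 FPKM in Mali. Neither chain overlapped between breeds, though for COL4A2 Hampshire replicate 1 exceeded Mali replicate 2 by under 1 FPKM. The log2 difference was 1.57 for COL4A1 (standard error 0.60, adjusted p = 0.697 in limma) and 1.59 for COL4A2 (standard error 0.72, adjusted p = 0.748). Most of it came from the second title suffix, where it was 2.31 and 2.33 for these chains, against 0.82 and 0.85 within the first. Their median of 1.58 became 0.60 when Hampshire replicate 2 was left out and 2.56 when Hampshire replicate 1 was. These genes lie head to head on chromosome 11 (76858332 to 76997409, minus strand, and 76996885 to 77161617, plus strand) and overlap by 525 bases. Since the sources used here give no strand setting, reads in the overlap cannot be assigned to one of them with certainty.

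The minor type IV chains were near the lower limit of the table and were not tested. COL4A5 was at 0.643 and 0.813 FPKM in Hampshire, against 0.176 and 0.168 FPKM in Mali. COL4A6, its divergently oriented neighbour on chromosome X, was at 0.271 and 0.233 FPKM in Hampshire, against 0.060 and 0.062 FPKM in Mali. The breeds did not overlap for either chain. COL4A3 and COL4A4, another overlapping head-to-head pair (663 bases, chromosome 15), did not exceed 0.198 FPKM.

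In the type VI collagen of the pericellular matrix, COL6A2 was at 14.3 and 36.7 FPKM in Hampshire, against 6.03 and 11.04 FPKM in Mali, without overlap. COL6A3 was at 7.12 and 29.5 FPKM in Hampshire, against 3.65 and 7.62 FPKM in Mali, where Hampshire replicate 1 fell between the Mali libraries. The log2 difference was 1.39 for COL6A2 (standard error 0.55, adjusted p = 0.697 in limma) and 1.31 for COL6A3 (standard error 0.66, adjusted p = 0.789). COL6A6, an alternative chain that can take the place of COL6A3, was at 1.28 and 5.74 FPKM in Hampshire, against 0.045 and 0.523 FPKM in Mali. Its ratio of breed means, 12.4, was the widest among the tested chains. However, COL6A6 passed the filter through Hampshire alone, so that its direction was fixed and its ratio rests on low Mali values. COL6A5, which lies beside COL6A6 on chromosome 13, did not exceed 0.0551 FPKM. The 3 tested type VI chains had a median log2 difference of 1.39; leaving out Hampshire replicate 2 gave 0.74, and leaving out Hampshire replicate 1 gave 2.27. COL6A2 was on a scaffold not placed on a chromosome, and COL6A3 on chromosome 15 (137011549 to 137103687).

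Among the other chains, COL15A1, a multiplexin that links basement membranes to the surrounding matrix, resembled the fibrillar chains in its size of difference. It was at 18.0 and 42.7 FPKM in Hampshire, against 1.999 and 7.35 FPKM in Mali, with no overlap. Its log2 difference of 2.53 (standard error 0.62) was 2.66 within the first title suffix and 2.39 within the second, and its adjusted p of 0.447 in limma was the lowest of the chains. COL15A1 lies on chromosome 1 (240718128 to 240829188). COL18A1, the other multiplexin and the precursor of endostatin, was at 1.36 and 3.81 FPKM in Hampshire, against 0.713 and 1.45 FPKM in Mali, so that its breeds overlapped.

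Of the fibril-associated collagens, which sit on the surface of fibrils, COL14A1 was at 3.47 and 9.42 FPKM in Hampshire, against 0.974 and 1.91 FPKM in Mali. COL21A1 was at 1.999 and 4.64 FPKM in Hampshire, against 0.299 and 0.887 FPKM in Mali. COL16A1 was at 0.614 and 5.07 FPKM in Hampshire, against 0.360 and 1.86 FPKM in Mali, a difference of 0.67 that turned to -0.29 without Hampshire replicate 2. COL12A1 was at 2.71 FPKM in Hampshire replicate 2 and below 1 FPKM in the other libraries. COL22A1, found at muscle-tendon junctions, was the 1 chain that lay lower in both Hampshire libraries than in either Mali library, at 0.021 and 0.034 FPKM in Hampshire, against 0.140 and 0.173 FPKM in Mali. The short-chain COL8A1, of vessel walls, was at 1.14 and 1.37 FPKM in Hampshire, against 0.269 and 0.272 FPKM in Mali. The 6 tested chains outside the main classes had a median log2 difference of 1.11, and it was 1.74 without Hampshire replicate 1. The anchoring-fibril chain COL7A1, the short-chain collagens COL8A2 and COL10A1, all 4 transmembrane collagens, the fibril-associated COL9A1, COL9A2, COL9A3, COL19A1 and COL20A1, and COL26A1 and COL28A1 were also under the filter.

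Of the 43 chains, 26 were under the filter on low values and 2 of these, COL9A1 and COL10A1, were listed at 0 in every library. Among the 17 tested chains, both Hampshire libraries lay above both Mali libraries for 12, where 13.0% of all tested genes did. Leaving aside the 3 chains that passed through Hampshire alone, this held for 9 of 14. Under other scalings, for which the share of all genes is not given here, the count moved both ways. It was 9 of 16 after rescaling each library to the same FPKM total and 16 of 17 with mitochondrial genes left out of that total. With median-of-ratios size factors it was 14 of 17. Among genes with a mean of at least 5 FPKM over the 4 libraries, both Hampshire libraries lay above both Mali libraries for 8 of 11 chains and 8.09% of genes. COL5A1, COL5A2, COL5A3 and COL15A1 reached that mean through Hampshire, with Mali means under 5 FPKM, so that the direction of their breed means was fixed. COL5A2 and COL15A1 are among the 8. Over all 41 chains above 0 in any library, with no filter, both Hampshire libraries lay above for 19 chains against 16.6% of genes. The reverse held for 1 chain, the untested COL22A1, against 15.7% of genes. The reverse held for 0 of the 17 tested chains and 23.6% of all tested genes. The difference was positive within both title suffixes for the 14 chains that did not pass through Hampshire alone, and for the other 3, where 20.4% of all tested genes were higher in Hampshire within both. The median log2 difference of the 17 was 1.55, while that of all tested genes was -0.12. The chains' median was 0.75 without Hampshire replicate 2, 2.42 without Hampshire replicate 1, and with no filter 0.25 over all 41 chains, against 0.0017 over all genes. It was 1.13 within the first title suffix and 2.15 within the second, and 15 of the 17 chains had the larger difference within the second.

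**Figure D2:**
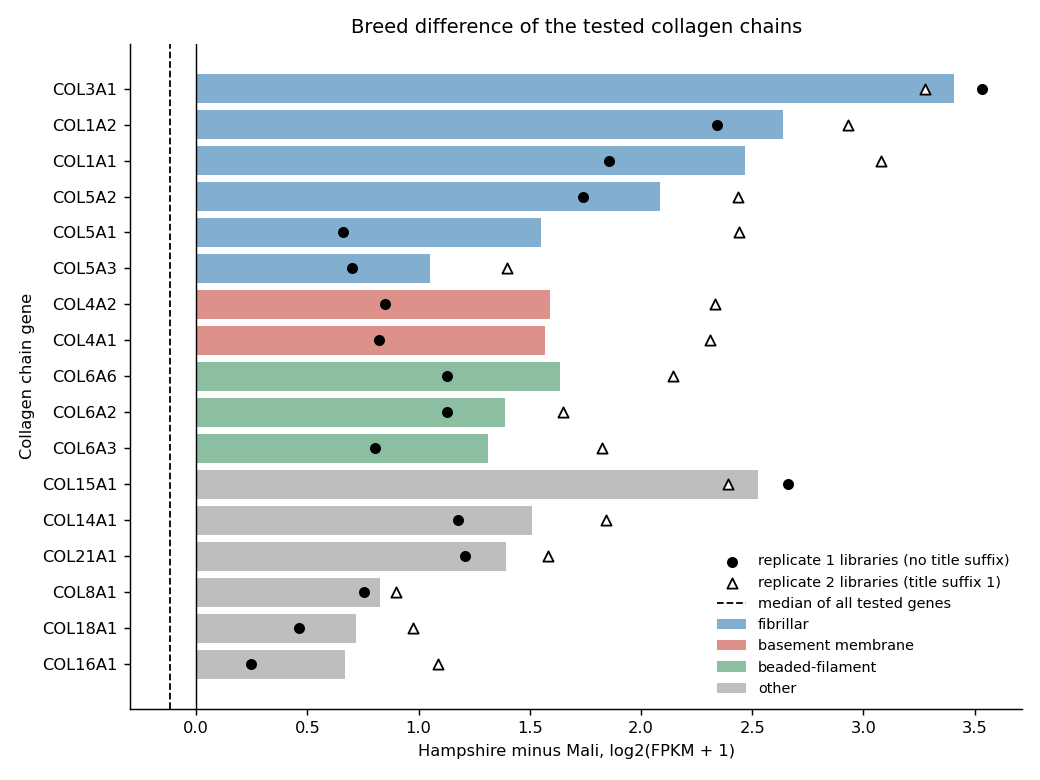
Hampshire minus Mali difference in log2(FPKM + 1) for the 17 tested collagen chains, with bars for the mean over libraries coloured by class, circles for the replicate 1 libraries and triangles for the replicate 2 libraries; the dashed line is the median of all tested genes, -0.12. Every bar and point is above 0, between 0.67 for COL16A1 and 3.41 for COL3A1 by the bars.

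No chain passed the test. By limma, 0 of the 17 chains and 0% of all tested genes had an adjusted p under 0.05, with chain values between 0.447 and 0.918, and 11 of the 17 chains and 7.09% of all tested genes had an unadjusted p under 0.05; without the 3 chains that passed through Hampshire alone it was 8 of 14. Libraries of 1 breed also stood apart from each other: for the 11 chains with a mean of at least 5 FPKM, Hampshire replicate 2 exceeded replicate 1 by 2.38-fold to 9.16-fold, with a median of 3.65-fold. Mali replicate 2 exceeded replicate 1 by 1.18-fold to 4.71-fold, with a median of 2.38-fold. When each library was rescaled to the same FPKM total, 4 chains passed (COL3A1, COL1A2, COL1A1 and COL15A1), with adjusted p between 1.55e-05 and 0.0336, where 0.648% of all tested genes did. Without mitochondrial genes in that sum, these 4 and COL6A6 passed, where 0.621% of genes did. Under those scalings limma took 1 common trend of variance for all genes and none from the gene itself, and with median-of-ratios size factors 0 chains passed.

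The authors' deposited table, which is built on the same libraries, holds their own comparison. The authors' deposited table marks COL1A1, COL1A2, COL3A1, COL15A1 and COL6A6 as significant, each with p = 5e-05 and q = 0.0179. These were 5 of the 21 chains with a test statistic in the authors' deposited table, where 0.518% of all rows with one were marked significant. The next chains in the authors' deposited table were COL14A1 with q = 0.0697 and COL5A1 with q = 0.0750, while COL4A1 had q = 0.608 and COL4A2 q = 0.691.

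The make-up of the collagen signal, which does not depend on how a library is scaled, also differed between the breeds in these libraries. The 43 chains summed to 378 and 1386 FPKM in Hampshire, against 70.9 and 185 FPKM in Mali. Fibrillar chains made up 78.4% and 80.9% of that sum in Hampshire, against 55.3% and 68.7% in Mali. Their share was higher in both Hampshire libraries, by 17.6 percentage points on average. With each class measured instead by the mean log2(FPKM + 1) of its chains, which weights the chains of a class equally, the difference was 0.63 percentage points (exact permutation p = 1) for fibrillar and -2.34 (exact permutation p = 0.667) for basement membrane chains, and for type VI it turned to 0.14 (exact permutation p = 1). Basement membrane chains made up 8.28% and 8.74% of the sum in Hampshire and 23.1% and 12.4% in Mali, and type VI chains 6.03% and 5.19% in Hampshire and 13.7% and 10.4% in Mali. Both shares were lower in both Hampshire libraries. Without Mali replicate 1 the fibrillar difference was 10.9 percentage points and the basement membrane difference -3.85, against -9.25 over all 4 libraries and -14.6 without Mali replicate 2. The exact two-sided permutation p was 0.333 for the share of each of these 3 classes, which is the smallest that 2 libraries against 2 allow. The share of the remaining chains was 7.31% and 5.16% in Hampshire and 7.80% and 8.503% in Mali, a difference of -1.92 percentage points, which became -0.84 when Hampshire replicate 2 was left out and -2.99 when Hampshire replicate 1 was. That difference turned to 0.73 percentage points when COL3A1 was left out of the sum, an alternative added after the data had been seen.

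**Figure D3:**
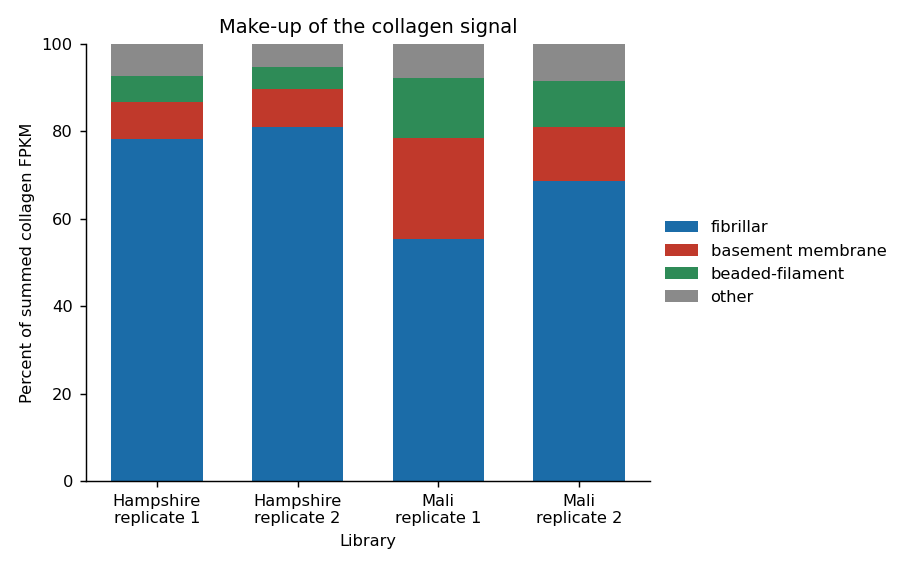
Share of each collagen class in the summed FPKM of the 43 chains, as stacked bars, for the 2 Hampshire and the 2 Mali libraries. The fibrillar part is 78.4% and 80.9% in Hampshire and 55.3% and 68.7% in Mali, and the basement membrane part is widest in Mali replicate 1.

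COL3A1 alone made up 50.7% and 52.1% of the collagen sum in Hampshire and 22.1% and 39.8% in Mali. There were 5.83 and 5.70 COL3A1 FPKM per COL1A1 FPKM in Hampshire and 1.87 and 5.20 in Mali. Mali replicate 1 stood apart from the other libraries in this ratio: the log2 difference of the ratio was 0.88 (exact two-sided permutation p = 0.333, n = 2 each), and it was 0.15 without Mali replicate 1 and 1.62 without Mali replicate 2. Ratios between chains of one collagen type overlapped between the breeds. COL1A2 was at 1.75 and 1.65 times COL1A1 in Hampshire and at 1.26 and 1.88 times in Mali. COL4A2 was at 0.563 and 0.837 times COL4A1 in Hampshire and at 0.534 and 0.812 times in Mali, so that this ratio went with the title suffix and not with the breed. COL6A3 was at 0.496 and 0.804 times COL6A2 in Hampshire and at 0.606 and 0.691 times in Mali. COL5A2 was at 4.17 and 1.62 times COL5A1 in Hampshire and at 1.997 and 1.82 times in Mali, with Hampshire replicate 1 apart.

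Markers of matrix-producing cells varied between the libraries as well, and in bulk tissue fewer cells of a type and less RNA per cell cannot be told apart. The 10 fibroblast markers summed to 92.4 and 371 FPKM in Hampshire, against 54.4 and 141 FPKM in Mali, so that the breeds overlapped. Of the 10 markers 9 had a positive log2 difference, where 39.5% of all tested genes did, and their median difference was 0.91. Hampshire lay above without overlap for 1 of the 10, near the 13.0% of all tested genes. The collagen sum per fibroblast marker FPKM, a ratio chosen after the data had been seen, was 4.09 and 3.74 in Hampshire and 1.30 and 1.31 in Mali. The log2 difference of that ratio was 1.58, with an exact two-sided permutation p of 0.333, the smallest possible. It was 1.52 to 1.65 when any 1 library was left out, 1.09 without COL3A1 and 1.71 without CLEC3B, the most abundant marker of the list. As the mean log2(FPKM + 1) of the 11 abundant chains minus that of the markers, it was 1.11.

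**Figure D4:**
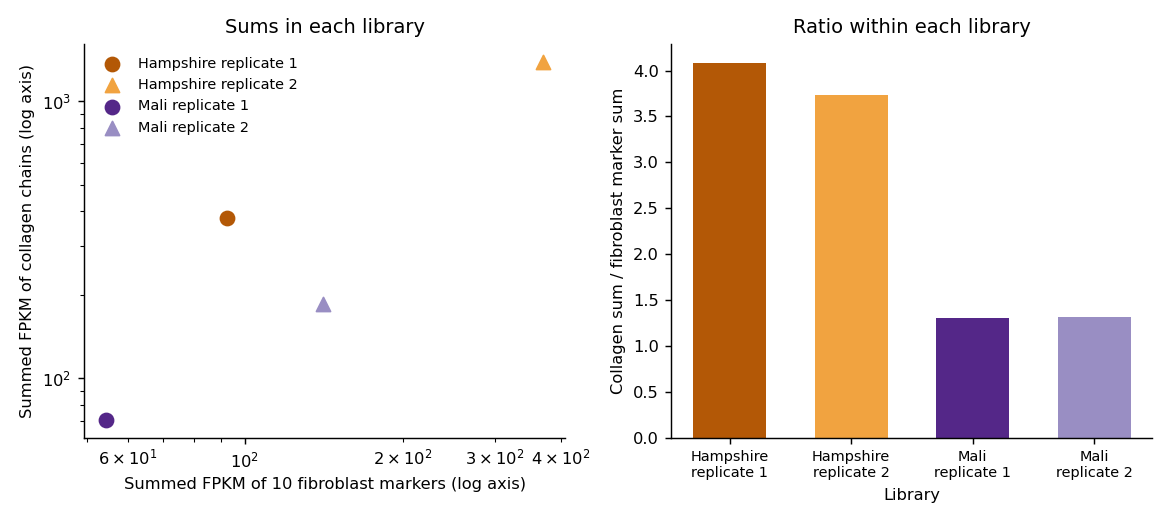
Left, summed FPKM of the 43 collagen chains against summed FPKM of 10 fibroblast markers, both on log axes, 1 point per library; right, the ratio of the sums in each library as bars. Mali replicate 2 has more fibroblast marker signal than Hampshire replicate 1 but less collagen, and the ratio is 4.09 and 3.74 in Hampshire and 1.30 and 1.31 in Mali.

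The 6 endothelial markers, from cells that also deposit type IV collagen, summed to 40.9 and 94.4 FPKM in Hampshire, against 44.0 and 50.2 FPKM in Mali, with a median log2 difference of 0.38. COL4A1 and COL4A2 together were at 0.739 and 1.27 times this sum in Hampshire and at 0.366 and 0.446 times in Mali, a ratio that was not planned beforehand. Its log2 difference was 1.26, with an exact two-sided permutation p of 0.333, the smallest possible. Adipocyte markers summed to 74.1 and 333 FPKM in Hampshire, against 112 and 82.8 FPKM in Mali, and smooth muscle and pericyte markers to 145 and 103 FPKM in Hampshire, against 104 and 65.5 FPKM in Mali. Hampshire replicate 2, the library with the most collagen, thus also had the most fibroblast, endothelial and adipocyte marker signal. The tendon and cartilage markers were highest there as well, at 2.63 FPKM in sum. The part of this in the collagen differences was not tested, and the ratios above were chosen after the data had been seen. The 5 macrophage markers summed to 16.5 and 25.3 FPKM in Hampshire, against 8.33 and 7.66 FPKM in Mali, and the 5 Schwann cell markers to 35.1 and 32.3 FPKM in Hampshire, against 26.8 and 18.4 FPKM in Mali. The 2 satellite cell markers did not exceed 1.96 FPKM in sum, and the 4 keratinocyte markers summed to 4.42 and 8.25 FPKM in Hampshire, against 9.22 and 24.5 FPKM in Mali.

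Genes that make, trim, bind or degrade collagen were set beside the chains, and none of them passed the test. Over all tested genes, 39.5% had a positive difference, 13.0% had Hampshire above without overlap and 23.6% had Hampshire below without overlap. Fibril-binding proteins had the highest median of the partner lists: 10 of 11 were tested, all 10 had a positive difference, 5 had Hampshire above without overlap, and the median difference was 1.22. SPARC, a collagen-binding matricellular protein, was at 259 and 411 FPKM in Hampshire, against 90.7 and 68.7 FPKM in Mali. Lumican (LUM), a proteoglycan that spaces fibrils, was at 42.4 and 57.5 FPKM in Hampshire, against 5.28 and 19.6 FPKM in Mali. The breeds did not overlap for either gene.

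Proteins of propeptide removal and cross-linking had 6 of 15 members tested, all 6 with a positive difference, 4 with Hampshire above without overlap, against 13.0% of all tested genes, and a median of 0.81. Of these 6, 2 (ADAMTS2 and LOXL2) passed the filter through Hampshire alone, so that their direction and lack of overlap were fixed. Both are among the 4 without overlap, and the rest of the 4 are BMP1 and PCOLCE. PCOLCE, which enhances cleavage of the procollagen tail, was at 18.9 and 48.0 FPKM in Hampshire, against 3.26 and 12.8 FPKM in Mali. It was the 1 tested gene of that list with a mean of at least 5 FPKM. Intracellular synthesis, folding and export differed from these lists in having members on both sides. Of 22 genes 18 were tested, 12 with a positive difference, 5 with Hampshire above and 4 with Hampshire below without overlap, and the median was 0.14. The 4 of 18 below are near the 23.6% of all tested genes. SERPINH1, the collagen chaperone HSP47, was at 19.2 and 34.5 FPKM in Hampshire, against 12.8 and 9.99 FPKM in Mali. P3H2, a prolyl hydroxylase acting on basement membrane collagen, was at 8.01 and 6.44 FPKM in Hampshire, against 3.97 and 3.30 FPKM in Mali.

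Collagen receptors had 7 of 12 members tested, 6 with a positive difference, 4 with Hampshire above without overlap, against 13.0% of all tested genes, and a median of 0.75. The integrin subunit ITGB1 was at 36.0 and 42.3 FPKM in Hampshire, against 29.8 and 28.7 FPKM in Mali, and ANTXR2, a receptor for basement membrane and type VI collagen, at 8.41 and 10.2 FPKM in Hampshire, against 2.59 and 4.70 FPKM in Mali. Collagen-degrading enzymes and their inhibitors had 8 of 13 members tested, 7 with a positive difference, 2 with Hampshire above without overlap, against 13.0% of all tested genes, and a median of 0.56. The inhibitor TIMP3 was at 21.4 and 37.9 FPKM in Hampshire, against 11.8 and 15.5 FPKM in Mali. The membrane-bound collagenase MMP14 was at 3.05 and 16.3 FPKM in Hampshire, against 3.29 and 3.31 FPKM in Mali, high in 1 Hampshire library alone. Adjusted p of these 9 named genes lay between 0.461 for SPARC and 0.931 for ITGB1 in limma.

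**Figure D5:**
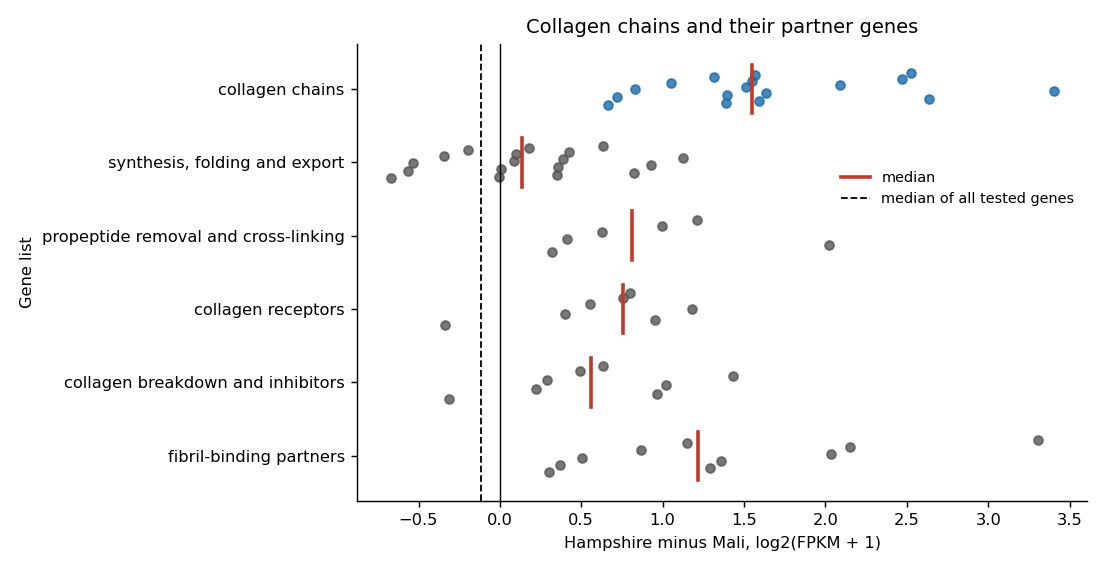
Hampshire minus Mali difference in log2(FPKM + 1) of each tested gene, for the 17 collagen chains and 5 lists of partner genes; red lines are medians and the dashed line is the median of all tested genes, -0.12. The chains have the rightmost median, 1.55, and the synthesis, folding and export list spreads to both sides of 0 around a median of 0.14.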

How the data were processed

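RNA from muscle biopsies of 2 Hampshire and 2 Mali libraries, grouped by the labelled breed and numbered within it by accession, was extracted with Trizol and made into TruSeq libraries, per the labels' protocols. The submitters' processing notes name HISAT2, Bowtie 0.12.2, Picard and Cuffdiff without roles. No build or strand setting was found there, but start and end of all 43 chains match RefSeq genes of Sscrofa11.1. In the single deposited file (30213 rows), each gene has 1 FPKM per library. Per the file headers it also holds breed means in FPKM and, from the authors' own test, the log2 fold change with its test score, p-value and q-value.

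A nameless row was dropped, 26 symbols in date form were put back by gene ID, and rows sharing a symbol were added up. The filter asked for 1 FPKM or more in 2 or more libraries. log2(FPKM + 1) was then fitted in limma 3.58.1 under R 4.3.3 with trended empirical Bayes variances (two-sided, with 2 residual and 5.24 prior degrees of freedom). The procedure was also run on data simulated from the means and spreads of these libraries with 200 changed genes, and the outcome is not given here. Shares and ratios within a library were compared with exact permutation tests over libraries. Alternatives varied the scaling, pseudocount, filter, variance trend, duplicate rows, replicate block and the libraries included. The named chains were those averaging 5 FPKM or more, with full statistics for the 8 highest; other chains are named with their class. From each partner list, the 2 genes with the lowest unadjusted p among those averaging 5 FPKM or more were named. Members, lists and tests were chosen with earlier results of these data known. Figures were drawn with matplotlib 3.10.9.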

Additional observations from a re-analysis of the deposited data

How the results depend on the processing

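The 11 chains with a mean of at least 5 FPKM kept a positive difference under the 9 alternatives that can move it (99 of 99 values). The share of all genes that did so is not given here. COL5A1, COL5A2, COL5A3 and COL15A1 had Mali means of 1.80, 3.36, 2.78 and 4.67 FPKM. They reached the 5 FPKM mean through Hampshire, so that the direction of their breed means was fixed. Among the 9 alternatives, the replicate block with size factors repeats the differences of the size factors alone. The other 5 alternatives change only the test or the genes around the chains. Over all 14 alternatives, 14 of the 154 values passed the test. The median of all tested genes was -0.40 after rescaling to a common sum, against -0.12 as deposited, and the median of the chains stood 1.69 and 1.67 above it. That gap was 0.85 without Hampshire replicate 2, 2.58 without Hampshire replicate 1 and 0.25 with no filter. Among all genes 0 passed as deposited, 66 after rescaling to a common sum, 63 after rescaling without mitochondrial genes, 1 among genes averaging 5 FPKM or more, and 0 to 7 when 1 library was left out; chains that passed were 0, 4, 5, 0 and 0. With the title suffix as a replicate block, 261 genes (2.59%) and 9 chains passed, all 9 higher in Hampshire, in a fit with 1 residual and 27.4 prior degrees of freedom; with size factors added, 0 genes passed. The labels do not say that the suffix pairs libraries; deviations from breed means correlated with r = 0.28 across genes between libraries of the same suffix. The count of chains without overlap was 19 with no filter, 9 after rescaling to a common sum and 16 after rescaling without mitochondrial genes. It was 14 with median-of-ratios size factors, and 12 to 17 when 1 library was left out, which cannot lower it. The share of all genes was 16.6% with no filter. For the scalings and with a library left out that share is not given here, so those counts cannot be set against it. The median of the remaining chains was 1.93 with a pseudocount of 0.1 and 2.53 among those averaging 5 FPKM or more. With no filter, the medians were 1.05 for fibrillar, 0.40 for basement membrane, 1.35 for beaded-filament and 0.076 for remaining chains. Leaving out 1 library gave medians of 1.37 to 3.19 for fibrillar, 0.60 to 2.56 for basement membrane, 0.74 to 2.27 for beaded-filament and 0.83 to 1.74 for remaining chains. When each class was measured by its mean log2(FPKM + 1), the share difference was 0.63 percentage points for fibrillar and -2.34 for basement membrane chains and turned to 0.14 for beaded-filament and 1.57 for remaining chains, and without COL3A1 to 0.73 for remaining chains; the cause was not tested. Count tests were not run because the table holds no counts, and the depth that limits the low chains is unknown.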
